A study of Chimonocalamus delicatus with 27 samples.

Results

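Genes described as Casparian strip, CASP-like or dirigent proteins were followed through RNA sequencing libraries of Chimonocalamus delicatus, a fragrant bamboo. They were taken by their deposited descriptions, which had to contain CASP-like, Casparian strip or dirigent in any case, and numbered 117 of 57356 genes in the table of plant parts and 116 of 55972 genes in the table of growth stages. Of these, 112 carried the same PH02Gene identifier in both tables, and the other 5 and 4 had MSTRG identifiers, which belong to 1 table each. The 12 plant part libraries covered the rhizome (the underground stem), the leaf, the branch and a stem whose age the labels do not give, called the part-set stem here. The 15 growth stage libraries were from shoots and from stems aged 0.5, 1, 2 and 3 years. Each of the 9 groups had 3 libraries, and the labels name no treatment or allele that separates the groups beyond part and age. They do not say whether roots were on the rhizome samples, and name no separate plants behind the 3 libraries of a group. The p-values therefore measure the spread between libraries, which may be technical.

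The Casparian strip is a ring of lignin in the walls of the root endodermis that blocks passage between cells. In Arabidopsis, CASP proteins span the plasma membrane and mark where the strip forms, CASPARIAN STRIP INTEGRITY FACTOR (CIF) peptides report gaps in it to the receptor kinase GSO1, and a dirigent protein takes part in its lignin deposition. CASP-like proteins form the wider membrane protein family, which plants also express outside the endodermis, and dirigent proteins steer the coupling of phenolic radicals into lignans and lignin-like polymers.

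By description, the plant part table held 6 Casparian strip membrane proteins, 55 CASP-like proteins, 3 CIF genes and 53 dirigent proteins. The growth stage table held 6, 54, 3 and 53 of them. Descriptions and symbols were carried over from like genes in other plants, so a name does not establish a role in this bamboo. All 6 Casparian strip membrane proteins, and 48 of the 55 CASP-like proteins of the plant part table, carried a gene ontology term for a membrane, and 7 of the 53 dirigent proteins carried one for the extracellular region. Another 34 dirigent proteins and the 3 CIF genes had no gene ontology term of any kind. The only KEGG number among the members was that of a ribosomal protein (K02923), given to 2 genes, PH02Gene37352 (CASP-like 2U2) and PH02Gene01598 (CASP-like Os03g0196400), whose models may therefore join more than 1 gene. The CASP-like 2D1 genes PH02Gene41766 and PH02Gene41767 had identical counts in every library, so their reads cannot be told apart.

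Total expected counts ran from 6257623 to 9010973 per plant part library and from 8615092 to 12422327 per growth stage library. A gene with 0 counts was therefore below the level of 3 counts, 0.333 to 0.479 CPM (counts scaled to library size) by part and 0.242 to 0.348 CPM by stage, for counting error only. Libraries of a group differed most in the rhizome (biological coefficient of variation 59.9%) and least in the 0.5-year stem (5.43%), with 19.9% to 44.2% in the other 7 groups. Genes with at least 1 FPKM (fragments scaled to transcript length and library size) in at least 3 libraries of a set were tested. In the plant part set 49 members passed, 28 had counts below that level and 40 had none in any library. In the growth stage set 45 passed, 28 were below it and 43 had none. Members that passed did so by being expressed somewhere, so their counts below say nothing of the whole list.

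The 6 Casparian strip membrane proteins, those named after the proteins that mark the strip itself, were nearly silent. Over the 12 plant part libraries they summed to 7 counts, with 3 of the 6 at 0 in every library and no value above 0.4 FPKM. Over the 15 growth stage libraries they summed to 24 counts, with 2 at 0 throughout and no value above 0.461 FPKM. None was tested. In the rhizome their summed FPKM was 0.339, 0.285 and 0 in libraries 1 to 3, against 0.4, 0 and 0 in the leaf, 0 in all 3 branch libraries, and 0, 0.162 and 0 in the part-set stem. Each of these values stands for 1 or 2 counts, and no order of the parts can be read from them.

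The other families were expressed, and most of what was measured came from CASP-like and CIF genes. In the plant parts, the CASP-like genes summed to 221 ± 61.1 FPKM in the rhizome, 135 ± 11.6 in the leaf, 269 ± 36 in the branch and 211 ± 18.3 in the part-set stem (SD, n = 3 each). The 3 CIF genes summed to 89.8 ± 11.9 FPKM in the rhizome, 12 ± 2.75 in the leaf, 115 ± 44.9 in the branch and 55.4 ± 19.1 in the part-set stem. The 53 dirigent genes summed to 30 ± 12.6, 17.3 ± 5.21, 32.1 ± 9.7 and 13.2 ± 2.02 FPKM in these 4 parts. The branch had the highest mean and the rhizome the next in all 3 families, but the libraries of these 2 parts overlapped in each. The leaf lay below every rhizome, branch and part-set stem library in CASP-like and CIF sums. In bulk samples, fewer cells of a type and less RNA per cell cannot be told apart.

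**Figure D1:**
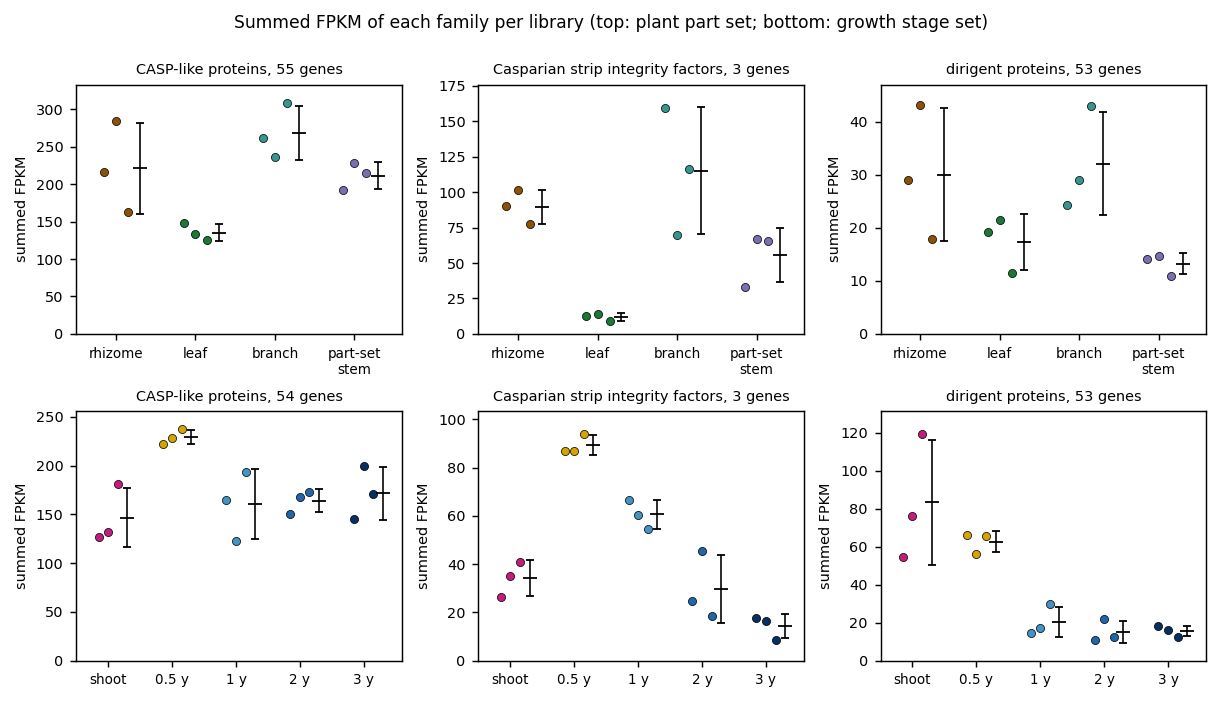
Summed FPKM of the CASP-like, CIF and dirigent genes in each library (points), with the mean and SD of the 3 libraries of a group (bar), for the plant parts (top row) and the growth stages (bottom row). CIF sums were 77.5 to 101 in rhizome libraries and 8.89 to 14.2 in leaf libraries, and dirigent sums were 54.4 to 119 in the shoot, 56.2 to 66.1 in the 0.5-year stem and 11 to 29.6 in the older stems.

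The first question was which members differed between the rhizome and the aerial parts. Against the mean of leaf, branch and part-set stem, 13 of the 49 members tested were higher and 7 lower in the rhizome (edgeR quasi-likelihood test, Benjamini-Hochberg adjusted p under 0.05). Of all 29630 genes tested, 22.6% were higher and 17.9% lower, so members were called about as often as other genes (40.8% of members and 40.5% of all genes). The median log2 change was 0.45 over the tested members and 0.04 over all genes. The calls held 11 higher and 6 lower CASP-like genes, 1 higher CIF gene, and 1 higher and 1 lower dirigent gene.

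**Figure D2:**
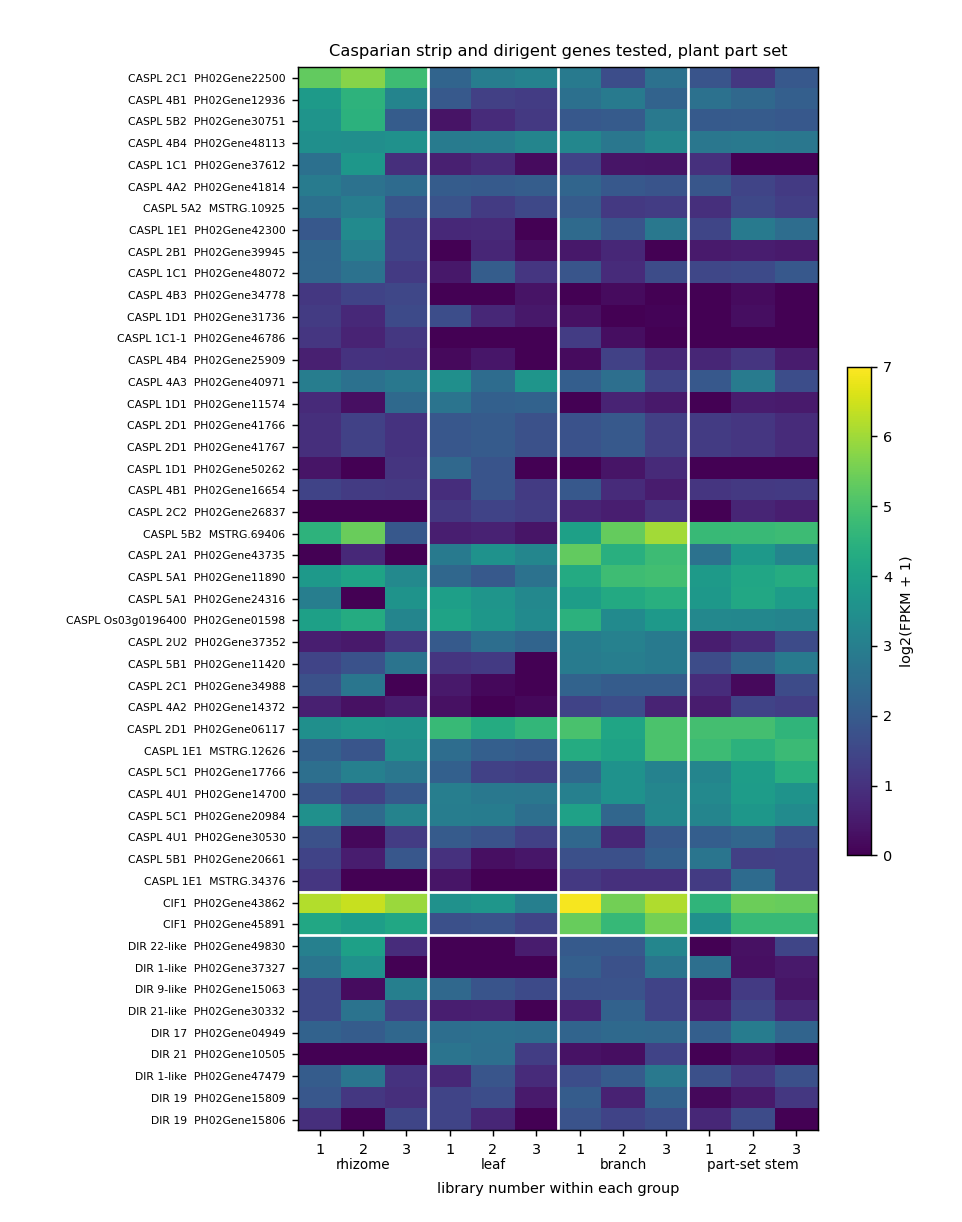
Level of the 49 members tested in the 12 plant part libraries, as log2(FPKM + 1), with rows grouped by family (CASP-like, then CIF, then dirigent, parted by white lines) and, within a family, by the part with the highest mean. The highest mean was in the rhizome for 18 members, in the leaf for 9, in the branch for 14 and in the part-set stem for 8. A gene could reach the level for testing through a single part, and the share over all genes was not computed.

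The gene with the smallest p among the members was a CASP-like 2C1 (PH02Gene22500), also the most abundant CASP-like gene of the rhizome. It had 39.2, 52.5 and 27.3 FPKM in the rhizome, against 3.75, 6.77 and 7.52 in the leaf, 6.23, 2.16 and 5.08 in the branch, and 2.54, 1.2 and 2.79 in the part-set stem. Every rhizome library was above every aerial library. Its log2 change was 3.34 ± 0.33 (SE) against the mean of the aerial parts (adjusted p = 3.06e-05), and 2.59, 3.28 and 4.13 against leaf, branch and part-set stem taken singly, comparisons that share the rhizome libraries. The second 2C1 gene, PH02Gene34988, had 2.35, 5.76 and 0 FPKM in the rhizome, against 0.396, 0.118 and 0 in the leaf, 3.68, 3.13 and 3.11 in the branch, and 0.849, 0.133 and 2.04 in the part-set stem. Its rhizome libraries spanned those of every other part, and it did not pass the test against their mean (1.70 ± 0.92, adjusted p = 0.161).

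Other CASP-like genes higher in the rhizome were less abundant. CASP-like 4B1 (PH02Gene12936) had 13.2, 21.8 and 7.94 FPKM in the rhizome, against 2.91, 1.51 and 1.35 in the leaf, 5, 6.2 and 3.68 in the branch, and 5.13, 4.16 and 3.31 in the part-set stem (2.06 ± 0.36, adjusted p = 0.00101). CASP-like 2B1 (PH02Gene39945) had 3.84, 7.1 and 1.66 FPKM in the rhizome and 0 to 0.712 in the 9 aerial libraries (3.50 ± 0.70, adjusted p = 0.00251). CASP-like 4B3 (PH02Gene34778) had 1.21, 1.66 and 1.83 FPKM in the rhizome and 0 to 0.295 in the aerial libraries (4.23 ± 0.77, adjusted p = 0.00142). In all 3 genes the rhizome libraries lay above all aerial ones. In 2B1 and 4B3 only rhizome libraries reached 1 FPKM, so both were tested only through the part where they were high. Their lack of overlap followed from that filter. CASP-like 5B2 (PH02Gene30751) was higher with overlap, at 11.3, 21.8 and 3.13 FPKM in the rhizome, against 0.303, 0.81 and 1.22 in the leaf, 2.83, 3.01 and 6.12 in the branch, and 2.92, 3.03 and 2.78 in the part-set stem (2.53 ± 0.49, adjusted p = 0.00193). A CASP-like 1D1 gene (PH02Gene31736) had 1.33, 0.747 and 1.99 FPKM in the rhizome, close to the 2.17, 0.714 and 0.366 of the leaf, against at most 0.239 in the branch and 0.199 in the part-set stem (2.70 ± 0.75, adjusted p = 0.0142).

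The other 5 CASP-like calls higher in the rhizome were each ended by leaving out a single library. The calls of 1C1 (PH02Gene37612, log2 change 3.59) and 5A2 (MSTRG.10925, 1.49) ended without rhizome library 2 (adjusted p = 0.0551 and 0.0721), and that of 4A2 (PH02Gene41814, 1.01) ended without rhizome library 1 (adjusted p = 0.0807). The call of 1C1-1 (PH02Gene46786, 3.88) ended without rhizome library 1 or 3 (adjusted p = 0.0699 and 0.0505) and was not made by DESeq2 (adjusted p = 0.118). That of 4B4 (PH02Gene48113, 0.57) ended with no filter on low values (adjusted p = 0.0874) and without any 1 of the 3 rhizome libraries, leaf library 1 or 2, branch library 1 or part-set stem library 3 (adjusted p = 0.0532 to 0.0752). CASP-like 4B4 had the tightest rhizome values of these genes, 10.2, 10.1 and 10.6 FPKM, against 5.84 to 8.48 in the aerial libraries.

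CASP-like genes lower in the rhizome included some of the most abundant in aerial parts. CASP-like 2A1 (PH02Gene43735) had 0, 0.764 and 0 FPKM in the rhizome, against 6.45, 10.8 and 8.23 in the leaf, 38.6, 20.2 and 26.8 in the branch, and 5.18, 12.6 and 8.06 in the part-set stem. All rhizome libraries were below all others, with the branch highest, and the log2 change was -5.47 ± 0.75 (adjusted p = 0.000252). CASP-like 2D1 (PH02Gene06117) had 10.2, 11.7 and 11.3 FPKM in the rhizome, against 25.2, 18.8 and 23.7 in the leaf, 30.9, 16.3 and 31.4 in the branch, and 28.9, 29.2 and 23.1 in the part-set stem (-1.21 ± 0.22, adjusted p = 0.00153). CASP-like 4U1 (PH02Gene14700) had 2.62, 1.54 and 2.8 FPKM in the rhizome, against 7.03, 5.95 and 5.81 in the leaf, 7.27, 10.9 and 8.23 in the branch, and 8.74, 13.8 and 11.1 in the part-set stem (-1.91 ± 0.25, adjusted p = 0.000181). Neither gene's rhizome values overlapped those of an aerial part.

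CASP-like 2C2 (PH02Gene26837) had 0 counts in the rhizome, against 1.19, 1.64 and 1.41 FPKM in the leaf, 0.656, 0.493 and 1 in the branch, and 0, 0.655 and 0.492 in the part-set stem. Part-set stem library 1 was at 0 as well. With a floor of 3 counts over the 3 rhizome libraries it was at least 8.75-fold lower there than over the aerial libraries together (adjusted p = 0.00595). CASP-like 2U2 (PH02Gene37352), 1 of the genes with the ribosomal KEGG number, had 0.513, 0.382 and 1.16 FPKM in the rhizome, against 2.94, 4.76 and 3.75 in the leaf, 6.61, 7.36 and 6.38 in the branch, and 0.463, 0.825 and 2.02 in the part-set stem (-2.18 ± 0.49, adjusted p = 0.00491). The rhizome and the part-set stem overlapped and were both below leaf and branch. CASP-like 1E1 (MSTRG.12626) had 3.49, 2.6 and 10.1 FPKM in the rhizome and 3.06 to 4.67 in the leaf, against 15.2 to 31.4 in the branch and 21.6 to 26.8 in the part-set stem. Its call against the mean (-1.29 ± 0.40, adjusted p = 0.0244) ended without rhizome library 1 or 2 (adjusted p = 0.113 and 0.0789).

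**Figure D3:**
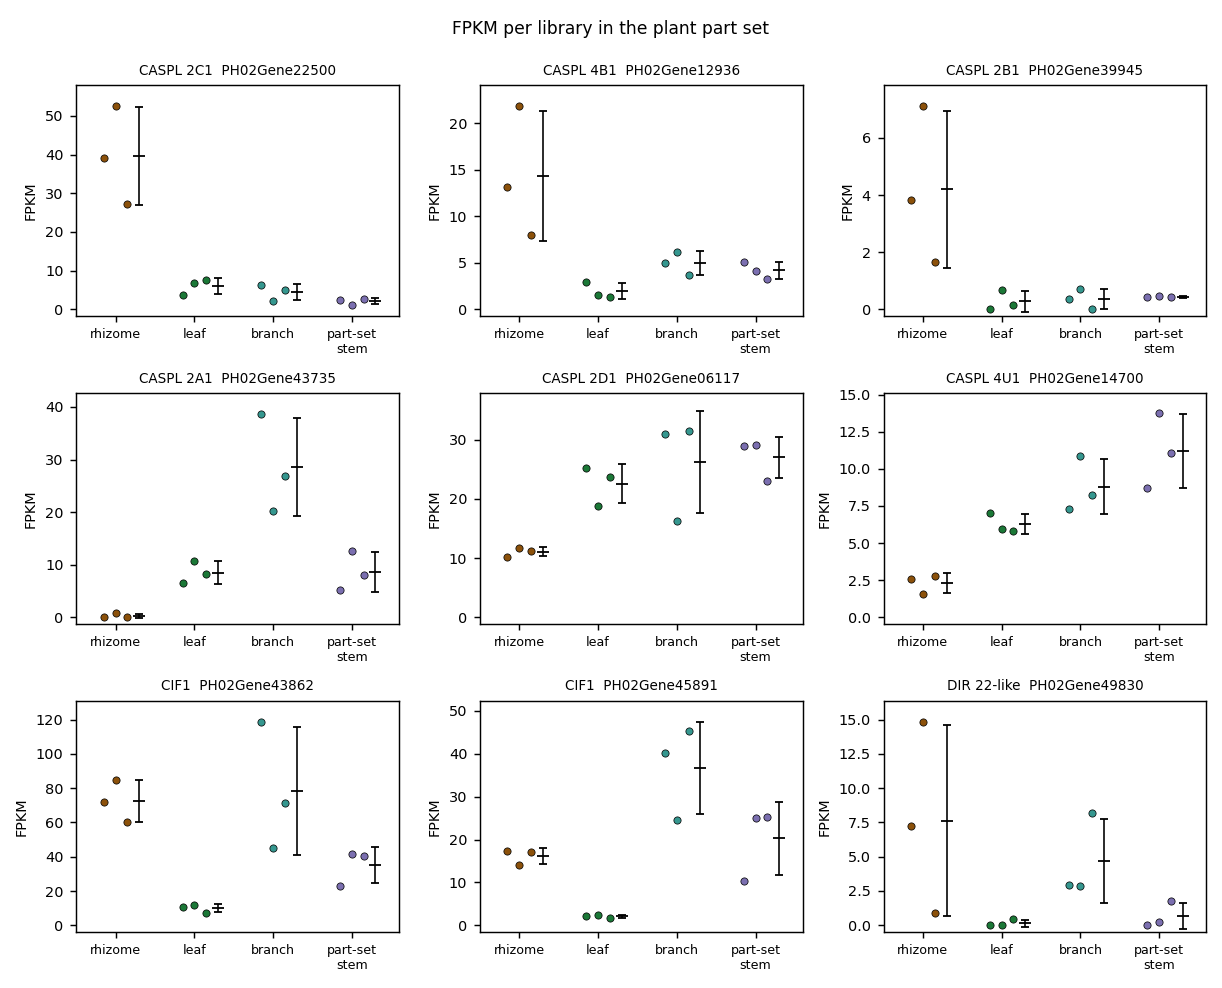
FPKM of 9 members in each plant part library (points, libraries 1 to 3 from left to right), with the mean and SD of each part (bar). CASP-like 2C1, 4B1 and 2B1 were above all aerial libraries in the rhizome, CASP-like 2A1, 2D1 and 4U1 were below them, and the rhizome overlapped the branch or the part-set stem in both CIF genes and in dirigent 22-like.

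Both CIF genes tested, named after a secreted peptide signal, were lower in every leaf library than in any other library. Both had their highest mean in the branch. PH02Gene43862, the most abundant member in the rhizome, had 72.1, 84.7 and 60.3 FPKM there, against 10.7, 11.7 and 7.2 in the leaf, 119, 44.9 and 71.2 in the branch, and 23, 41.9 and 40.5 in the part-set stem. The rhizome was above every leaf and part-set stem library and inside the range of the branch. The log2 change was 1.26 ± 0.26 against the mean of the aerial parts (adjusted p = 0.00257), 2.75 ± 0.36 against the leaf (adjusted p = 0.000111) and 0.02 ± 0.33 against the branch (adjusted p = 0.966). PH02Gene45891 had 17.4, 14.1 and 17.1 FPKM in the rhizome, against 2.24, 2.43 and 1.69 in the leaf, 40.2, 24.6 and 45.3 in the branch, and 10.4, 25.1 and 25.3 in the part-set stem. It was higher than in the leaf (2.79 ± 0.34, adjusted p = 6.94e-05), and its change against the mean of the aerial parts did not pass the test (0.45 ± 0.25, adjusted p = 0.168). Its lower level in the rhizome than in the branch (-1.08 ± 0.31, adjusted p = 0.0242) was no longer called without rhizome library 1 or branch library 3 (adjusted p = 0.0677 and 0.0958). The third CIF gene, PH02Gene18497, had 0.904, 2.53 and 0.118 FPKM in the rhizome, 0 counts in leaf and part-set stem and 0.112 FPKM in 1 branch library, and did not reach the level for testing.

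Dirigent genes were mostly silent in the plant parts, with 28 of 53 at 0 counts in all 12 libraries, 16 below the level for testing and 9 tested. Dirigent 22-like (PH02Gene49830) had 7.24, 14.8 and 0.863 FPKM in the rhizome, against 0, 0 and 0.453 in the leaf, 2.96, 2.89 and 8.22 in the branch, and 0, 0.246 and 1.78 in the part-set stem. The rhizome libraries were spread over a wide range that took in the whole branch, and rhizome library 3 was below part-set stem library 3. Its call (3.20 ± 0.88, adjusted p = 0.0138) ended without rhizome library 2 (2.18, adjusted p = 0.0978). Dirigent 21 (PH02Gene10505) had 0 counts in the rhizome, against 5.52, 4.91 and 1.43 FPKM in the leaf, 0.268, 0.201 and 1.67 in the branch, and 0, 0.223 and 0 in the part-set stem. It was at least 19.98-fold lower than in the leaf (adjusted p = 0.00298). Its call against the mean of the aerial parts (adjusted p = 0.0487) ended without any 1 of the 3 rhizome libraries, leaf library 1 or 2, branch library 3 or any 1 part-set stem library (adjusted p = 0.0507 to 1). Dirigent 17 (PH02Gene04949), the most abundant dirigent gene in leaf and part-set stem, did not pass the test, at 3.61, 3.13 and 4.08 FPKM in the rhizome, against 4.74 to 5 in the leaf, 3.76 to 4.24 in the branch and 3.38 to 6.71 in the part-set stem (-0.35 ± 0.22, adjusted p = 0.226).

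Taken part by part, in comparisons that share the rhizome libraries, the leaf gave the most calls. In the rhizome 17 members were higher and 8 lower than in the leaf, where 24.7% and 21.1% of all genes were (51% of members and 45.8% of all genes in either direction), with a median log2 change of 1.02 over the members and 0.10 over all genes. The 17 fell to 10 without rhizome library 2, leaf library 2 or leaf library 3, and to 11 without leaf library 1. CASP-like 5B2 (MSTRG.69406) had 21.9, 40.9 and 2.79 FPKM in the rhizome, against 0.499, 0.592 and 0.309 in the leaf (5.41 ± 1.00, adjusted p = 0.00122), and 14.7 to 64.1 in the branch. CASP-like 5A1 (PH02Gene11890) had 12.5, 15.8 and 8.81 FPKM in the rhizome, against 4.04, 2.9 and 5.22 in the leaf (1.48 ± 0.34, adjusted p = 0.00426). Neither gene's rhizome libraries overlapped those of the leaf. Dirigent 22-like (PH02Gene49830) was also higher than in the leaf (5.33 ± 1.49, adjusted p = 0.0128), and the calls of dirigent 1-like (PH02Gene37327) and dirigent 21-like (PH02Gene30332) ended without rhizome library 2 or any 1 leaf library (adjusted p = 0.0576 to 0.0629 for the one and 0.0561 to 0.104 for the other).

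Against the branch, 6 members were higher and 7 lower in the rhizome, where 13.3% and 14.8% of all genes were (26.5% of members and 28.1% of all genes in either direction). Limma on log2(FPKM + 1) gave 5 higher and 9 lower, on a scale where the median of all genes was -0.11. The 6 higher calls fell to 1, CASP-like 2C1 (PH02Gene22500), without branch library 3, and to 2 and 3 without rhizome library 1 and 2. CASP-like 2A1 (PH02Gene43735), 4U1 (PH02Gene14700), 2U2 (PH02Gene37352) and 2C2 (PH02Gene26837) were lower under every alternative that could be fitted for them. Against the part-set stem, 11 members were higher and 5 lower, where 14.5% and 15% of all genes were (32.7% of members and 29.6% of all genes in either direction). The 11 fell to 3 and 5 without rhizome library 1 and 2, and to 5, 3 and 2 without part-set stem library 1, 2 and 3, and CASP-like 2C1 (PH02Gene22500) alone was called higher in all of these.

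The rhizome libraries differed from one another in markers of secondary wall formation. The 81 genes of that marker list summed to 357, 729 and 101 FPKM in rhizome libraries 1, 2 and 3, against 94.1 to 118 in the leaf, 209 to 285 in the branch and 151 to 287 in the part-set stem, and 26 of the 81 were at 0 in the rhizome. Of the 13 members higher in the rhizome, 8 had the same order of rhizome libraries (2 over 1 over 3), as did 17 of the 49 members tested, none of the 7 lower members, and 30.9% of all genes tested. Among the lower members, PH02Gene26837 and PH02Gene10505 were at 0 in every rhizome library and PH02Gene43735 in libraries 1 and 3, so these could not show the order. The order among all genes called higher or lower was not counted. Green tissue markers (22 genes, 9 of them at 0 in the rhizome) summed to 29 to 52.6 FPKM in the rhizome, against 8424 to 10564 in the leaf, 1017 to 1765 in the branch and 821 to 3131 in the part-set stem. Root and root hair markers (56 genes, 25 of them at 0 in the rhizome) summed to 621 to 739 FPKM in the rhizome, against 474 to 504 in the leaf, 794 to 890 in the branch and 890 to 1098 in the part-set stem. This list includes silicon transporters and was higher in branch and part-set stem than in the rhizome, so its sums cannot be read as root content. The part of all these markers in the members' changes was not tested.

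Other genes of the endodermis gave no uniform direction in the rhizome. Of 66 tested genes for endodermis regulators and Casparian strip machinery, 18 were higher and 10 lower than in the mean of the aerial parts (42.4% called, median log2 change -0.02, against 0.04 over all genes). The words used took in many scarecrow-like proteins, and without these 6 were higher and 7 lower of 27. A respiratory burst oxidase gene (PH02Gene37467), of the enzymes that supply reactive oxygen, averaged 4.43 ± 4.08 FPKM in the rhizome and 0.447 ± 0.3 in the 9 aerial libraries (log2 change 3.37, adjusted p = 0.00271, but 0.0539 with limma on log2(FPKM + 0.1)). A PBL15 kinase gene (PH02Gene14435) averaged 0.645 ± 0.251 FPKM in the rhizome and 11.5 ± 6.55 in the aerial libraries (-4.05, adjusted p = 0.00145). In both genes some libraries of the 2 sides overlapped.

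Of 24 tested genes on the suberin list, 4 were higher and 1 was lower in the rhizome (20.8% called, against 40.5% of all genes). The list was taken by description words that cover whole enzyme families, so some of its genes may have roles other than suberin. The highest change was that of an ABCG16-like transporter gene (PH02Gene34436), at 6.74 ± 3.19 FPKM in the rhizome and 0.115 ± 0.2 in the aerial libraries (6.56, adjusted p = 1.19e-05), with no overlap. The lower gene, a cytochrome P450 86B1 (PH02Gene29300), averaged 0.329 ± 0.105 and 2.04 ± 1.27 FPKM, and its call (-2.43, adjusted p = 0.0181) ended without rhizome library 1 or 3 (adjusted p = 0.0751 and 0.0522). Silicon uptake genes were split, with 3 higher and 3 lower of 10 (60% called). The aquaporin NIP2-2 (PH02Gene10020) averaged 6.89 ± 2.23 FPKM in the rhizome and 78.4 ± 66.3 in the aerial libraries (-3.05, adjusted p = 0.00072), and an LSI2-like efflux transporter (PH02Gene16282) averaged 47.4 ± 43.8 and 14.2 ± 8.18 FPKM, a call (1.97, adjusted p = 0.0124) that ended without rhizome library 2 (0.91, adjusted p = 0.191) and with limma. Of 63 laccase and monolignol genes, 21 were higher and 13 lower (54% called). A cinnamoyl-CoA reductase 2-like gene (PH02Gene04629) averaged 6.75 ± 6.78 FPKM in the rhizome and 0.369 ± 0.492 in the aerial libraries (5.83, adjusted p = 0.00146). A cinnamyl alcohol dehydrogenase 5 gene (PH02Gene38470) had 0 counts in the rhizome and a widely spread 9.44 ± 14.9 FPKM in the aerial libraries. It was at least 133-fold lower than over the aerial libraries together (adjusted p = 0.000446), a bound that need not hold for each part. The single tested lignan gene was not called (-0.23).

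The second question was how the members changed with the age of the stem. Summed CASP-like FPKM was 147 ± 30.2 in the shoot, 229 ± 7.4 in the 0.5-year stem, 160 ± 35.8 at 1 year, 164 ± 11.8 at 2 years and 172 ± 27 at 3 years (SD, n = 3 each). CIF sums were 34.2 ± 7.32, 89.3 ± 4.09, 60.7 ± 5.98, 29.7 ± 14.2 and 14.3 ± 4.96 FPKM over the same stages. Dirigent sums were 83.3 ± 33.1, 62.8 ± 5.67, 20.6 ± 7.91, 15.1 ± 6.01 and 15.7 ± 2.8 FPKM. CASP-like and CIF sums peaked at 0.5 years, where no library overlapped another stage, while dirigent sums were highest in the 2 youngest stages, none of whose libraries overlapped the older stems. The highest mean fell in the shoot for 10 of the 13 dirigent genes tested and for 11 of the 30 CASP-like genes. Some of these, such as PH02Gene10505 with no counts in any stem library, reached the level for testing through the shoot alone. The filter therefore fixed part of these counts, and the share over all genes was not computed.

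**Figure D4:**
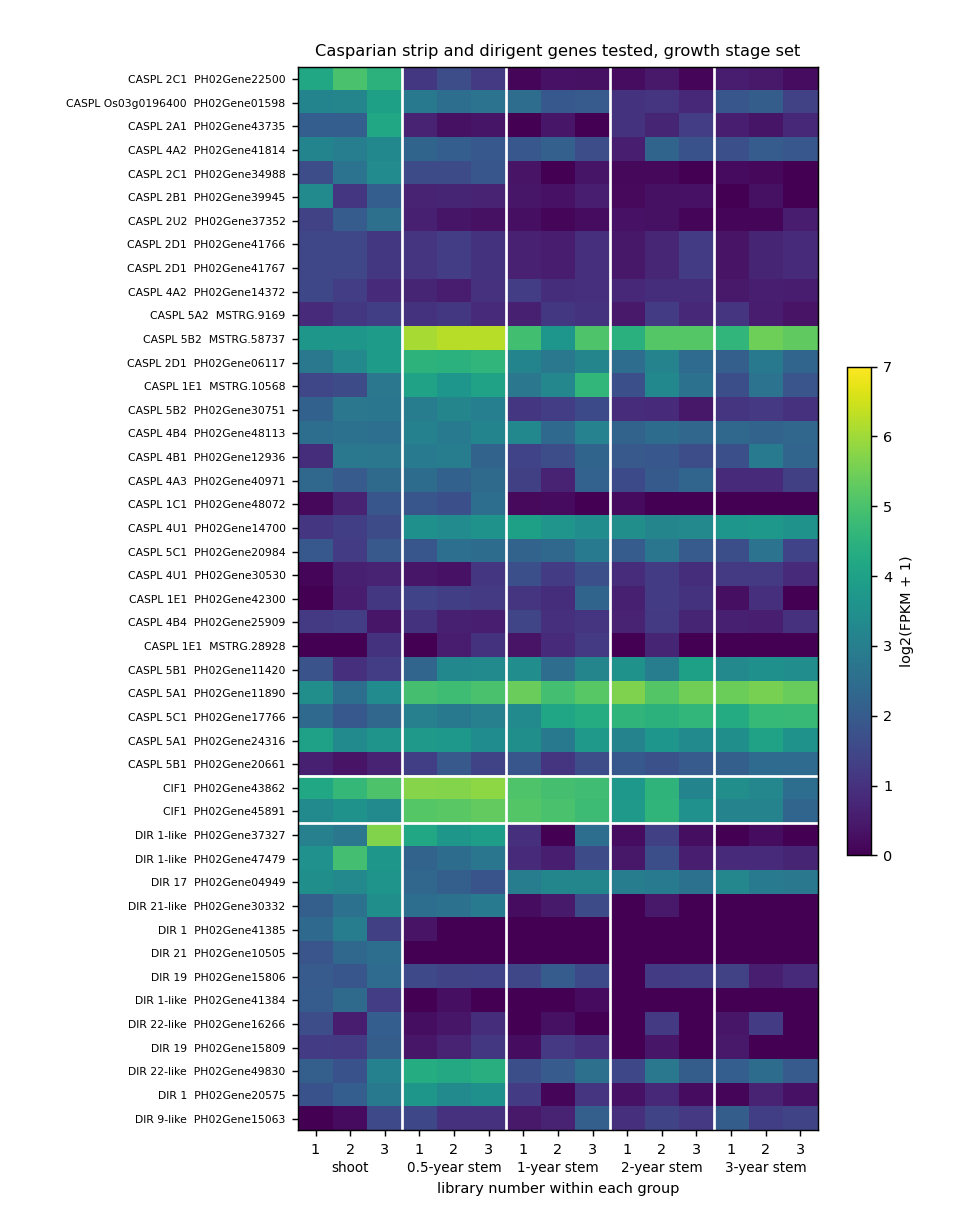
Level of the 45 members tested in the 15 growth stage libraries, as log2(FPKM + 1), with rows grouped by family (CASP-like, then CIF, then dirigent, parted by white lines) and, within a family, by the stage with the highest mean. The highest mean was in the shoot for 21 members, in the 0.5-year stem for 12, and in the stems of 1, 2 and 3 years for 6, 1 and 5. A gene could reach the level for testing through a single stage, and the share over all genes was not computed.

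From the shoot to the 0.5-year stem, 15 of 45 members were higher in the 0.5-year stem and 9 lower, where 26.5% and 27.3% of all 29538 genes were (53.3% of members and 53.8% of all genes in either direction), with a median log2 change of 0.31 over members and -0.04 over all genes. Limma on log2(FPKM + 1) gave 13 higher and 13 lower, on a scale where the median of all genes was -0.28. The higher calls held 11 CASP-like, both tested CIF and 2 dirigent genes, and the lower ones 4 CASP-like and 5 dirigent genes. Of these lower dirigent genes, PH02Gene10505, PH02Gene41384 and PH02Gene41385 reached the level for testing through the shoot alone. Summing the closely alike 0.5-year libraries to 1 sample reversed no call. It ended those of the CASP-like genes PH02Gene20984, PH02Gene30751, PH02Gene39945 and PH02Gene48113, and of the dirigent genes PH02Gene20575 and PH02Gene47479.

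Several CASP-like genes of the 5A, 5B, 5C and 4U groups were higher in stems than in the shoot, and others of these groups were not, or not at every age. The 5B2 gene PH02Gene30751 was called higher at 0.5 years, with log2 changes of 0.494 to 1.08 over the alternatives. That call ended with limma and without shoot library 1 or 0.5-year library 2. At 3 years the gene was lower instead, averaging 1.11 ± 0.123 FPKM, against 5.04 ± 1.34 in the shoot (-1.66 ± 0.31, adjusted p = 0.000318). The genes 5A1 PH02Gene24316 and 5A2 MSTRG.9169 were called in no comparison. CASP-like 5B2 (MSTRG.58737) had 12, 12 and 13.6 FPKM in the shoot, 67.2, 75.5 and 74.9 at 0.5 years, 28.7, 11.9 and 32.6 at 1 year, 20.6, 34.4 and 34.7 at 2 years, and 23.5, 42.7 and 38.4 at 3 years. It was highest at 0.5 years without overlap (2.90 ± 0.34 against the shoot, adjusted p = 1.07e-05). CASP-like 5A1 (PH02Gene11890) had 9.93, 4.82 and 9.46 FPKM in the shoot, 29.6, 27.5 and 30.8 at 0.5 years, 41.2, 28.9 and 35.1 at 1 year, 48.7, 33.9 and 43.7 at 2 years, and 42, 46.4 and 40.7 at 3 years. CASP-like 5C1 (PH02Gene17766) had 4.29, 2.78 and 3.98 FPKM in the shoot, 7.2, 6.17 and 7.25 at 0.5 years, 9.25, 16.8 and 19.1 at 1 year, 22.9, 21.5 and 23.9 at 2 years, and 18.7, 24.9 and 25.8 at 3 years. In both genes every stem library was above every shoot library, and 5C1 was higher in the 1-year than in the 0.5-year stem as well (1.06 ± 0.24, adjusted p = 0.00481). Against the shoot, the log2 changes at 0.5 and 3 years were 2.22 and 2.93 for 5A1 and 1.25 and 3.16 for 5C1, comparisons that share the shoot libraries (adjusted p of 0.000879 or less).

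CASP-like 4U1 (PH02Gene14700) had 1.16, 1.47 and 2.02 FPKM in the shoot and 8.1 to 14.7 in the 12 stem libraries (3.08 ± 0.24 at 0.5 years, adjusted p = 3.04e-07; 3.43 ± 0.24 at 3 years, adjusted p = 5.54e-08). The 5B1 genes PH02Gene11420 and PH02Gene20661 had 0.923 to 2.45 and 0.301 to 0.617 FPKM in the shoot, against 8.89 to 10.3 and 3.33 to 4.5 at 3 years (3.05 ± 0.49 and 3.54 ± 0.44, adjusted p = 8.4e-05 and 7.91e-06). Neither overlapped the shoot in the 0.5-year or the 3-year stem. CASP-like 2D1 (PH02Gene06117) and 1E1 (MSTRG.10568) were higher at 0.5 years too. The 2D1 gene had 5.95, 8.73 and 13.5 FPKM in the shoot, 22.2, 21.1 and 23.6 at 0.5 years and 7.99, 5.94 and 8.13 at 1 year, a change of 1.62 ± 0.28 against the shoot (adjusted p = 0.000299) and then of -1.64 ± 0.29 in the 1-year against the 0.5-year stem (adjusted p = 0.000979). The 1E1 gene had 1.81, 2.06 and 5.84 FPKM in the shoot, 15.5, 11.7 and 15.5 at 0.5 years and 5.82, 8.37 and 23.6 at 1 year (2.51 ± 0.58 at 0.5 years, adjusted p = 0.00231).

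The CASP-like 2A1, 2B1, 2C1 and 2U2 genes were highest in the shoot. CASP-like 2C1 (PH02Gene22500) had 17.3, 30.6 and 21.6 FPKM in the shoot, 1.19, 2.17 and 1.28 at 0.5 years, and 0.075 to 0.486 in all 9 older stem libraries. It was lower at each of the first steps, by -3.53 ± 0.38 in the 0.5-year stem against the shoot (adjusted p = 5.05e-06) and by -3.04 ± 0.52 in the 1-year against the 0.5-year stem (adjusted p = 8e-04). CASP-like 2A1 (PH02Gene43735) had 3.23, 3.28 and 17.3 FPKM in the shoot and 0.604, 0.246 and 0.326 at 0.5 years (-3.84 ± 0.80, adjusted p = 0.00109). CASP-like 2U2 (PH02Gene37352) had 1.63, 3.12 and 4.98 FPKM in the shoot and 0.529, 0.308 and 0.244 at 0.5 years (-2.76 ± 0.58, adjusted p = 0.00123). None of the 3 genes overlapped between the shoot and the 0.5-year stem, and in 2A1 and 2U2 shoot library 3 was the highest. CASP-like 2B1 (PH02Gene39945) had 9.26, 1.15 and 3.24 FPKM in the shoot and 0.585 to 0.668 at 0.5 years, a call (-2.49, adjusted p = 0.00732) that ended without shoot library 1 (-1.38, adjusted p = 0.0743).

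Both CIF genes peaked in the 0.5-year stem. PH02Gene43862 had 17.2, 24.2 and 31.9 FPKM in the shoot, 52.3, 51.1 and 55.1 at 0.5 years, 32.8, 29.7 and 27.9 at 1 year, 12.3, 22.6 and 7.84 at 2 years, and 10, 8.49 and 4.78 at 3 years. PH02Gene45891 had 9.07, 11 and 9.12 FPKM in the shoot, 34.3, 35.7 and 39 at 0.5 years, 33.9, 30.9 and 26.8 at 1 year, 12.6, 23 and 10.7 at 2 years, and 7.79, 7.72 and 3.82 at 3 years. The 0.5-year libraries were above all others in both genes. Against the shoot they were higher by 1.48 ± 0.31 (adjusted p = 0.00101) and 2.25 ± 0.27 (adjusted p = 1.44e-05). In the 3-year stem against the shoot, PH02Gene43862 was lower by -1.12 ± 0.32 (adjusted p = 0.00644), and PH02Gene45891 did not pass the test at -0.09 ± 0.27 (adjusted p = 0.788). The change of PH02Gene43862 in the 1-year against the 0.5-year stem (-0.85 ± 0.30, adjusted p = 0.0449) was lost without any 1 of the 6 libraries (adjusted p = 0.0532 to 0.129).

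Dirigent genes split at the first step. Dirigent 22-like (PH02Gene49830) had 3.31, 2.39 and 7.51 FPKM in the shoot, 19.2, 17.7 and 19.9 at 0.5 years, 2.21, 2.99 and 5.02 at 1 year, 1.86, 6.01 and 3.22 at 2 years, and 3.3, 4.55 and 3.01 at 3 years. It stood out at 0.5 years alone, with changes of 2.48 ± 0.42 against the shoot (adjusted p = 0.00023) and -2.53 ± 0.43 in the 1-year against the 0.5-year stem (adjusted p = 0.000807). Dirigent 1 (PH02Gene20575) had 2.42, 3.28 and 6.14 FPKM in the shoot, 12.2, 9.27 and 10.4 at 0.5 years and 1.32, 0.09 and 1.1 at 1 year. Its higher level at 0.5 years (1.81 ± 0.56, adjusted p = 0.0135) was lost without 0.5-year library 1 (adjusted p = 0.0512), and its lower level at 1 year was not (-3.66 ± 0.63, adjusted p = 0.000903). Dirigent 17 (PH02Gene04949) ran the other way, with 10.2, 8.81 and 11.2 FPKM in the shoot, 3.92, 3.31 and 2.5 at 0.5 years, 6.77, 8.25 and 8.29 at 1 year, and 5.11 to 8.38 in the older stems. It was lower at 0.5 years (-1.27 ± 0.20, adjusted p = 0.000116) and higher again at 1 year (1.20 ± 0.20, adjusted p = 0.00069), without overlap in either step.

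Among the growth stages, several dirigent genes were detected almost only in the shoot. Dirigent 21 (PH02Gene10505) had 2.59, 4.14 and 4.74 FPKM in the shoot and 0 counts in all 12 stem libraries, which made it at least 23.8-fold lower in the 0.5-year stem (adjusted p = 0.0012). Dirigent 1-like (PH02Gene41384) and dirigent 1 (PH02Gene41385) had 3.12, 4.38 and 1.41, and 4.24, 6.87 and 1.51 FPKM in the shoot, and at most 0.219 and 0.288 in any stem (-4.56 ± 0.94 and -4.94 ± 1.07 at 0.5 years, adjusted p = 0.00223 and 0.0048). DESeq2 did not call PH02Gene41385 (adjusted p = 0.335). In PH02Gene10505, PH02Gene41384 and PH02Gene41385 only the shoot reached 1 FPKM among the growth stages. They were therefore tested only through the stage where they were high. In the plant parts these genes were also detected outside shoots. PH02Gene10505 had 5.52, 4.91 and 1.43 FPKM in the leaf, and PH02Gene41384 and PH02Gene41385 reached 1.51 and 0.808 FPKM in the branch. Dirigent 1-like PH02Gene47479 was lower in the 0.5-year stem but still detected there. It had 10.5, 29 and 12 FPKM in the shoot and 3.72, 4.55 and 5.78 at 0.5 years, a call (-1.53, adjusted p = 0.0235) that ended without shoot library 2 (-0.88, adjusted p = 0.17) or 0.5-year library 1 or 2 (adjusted p = 0.0794 and 0.0699).

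**Figure D5:**
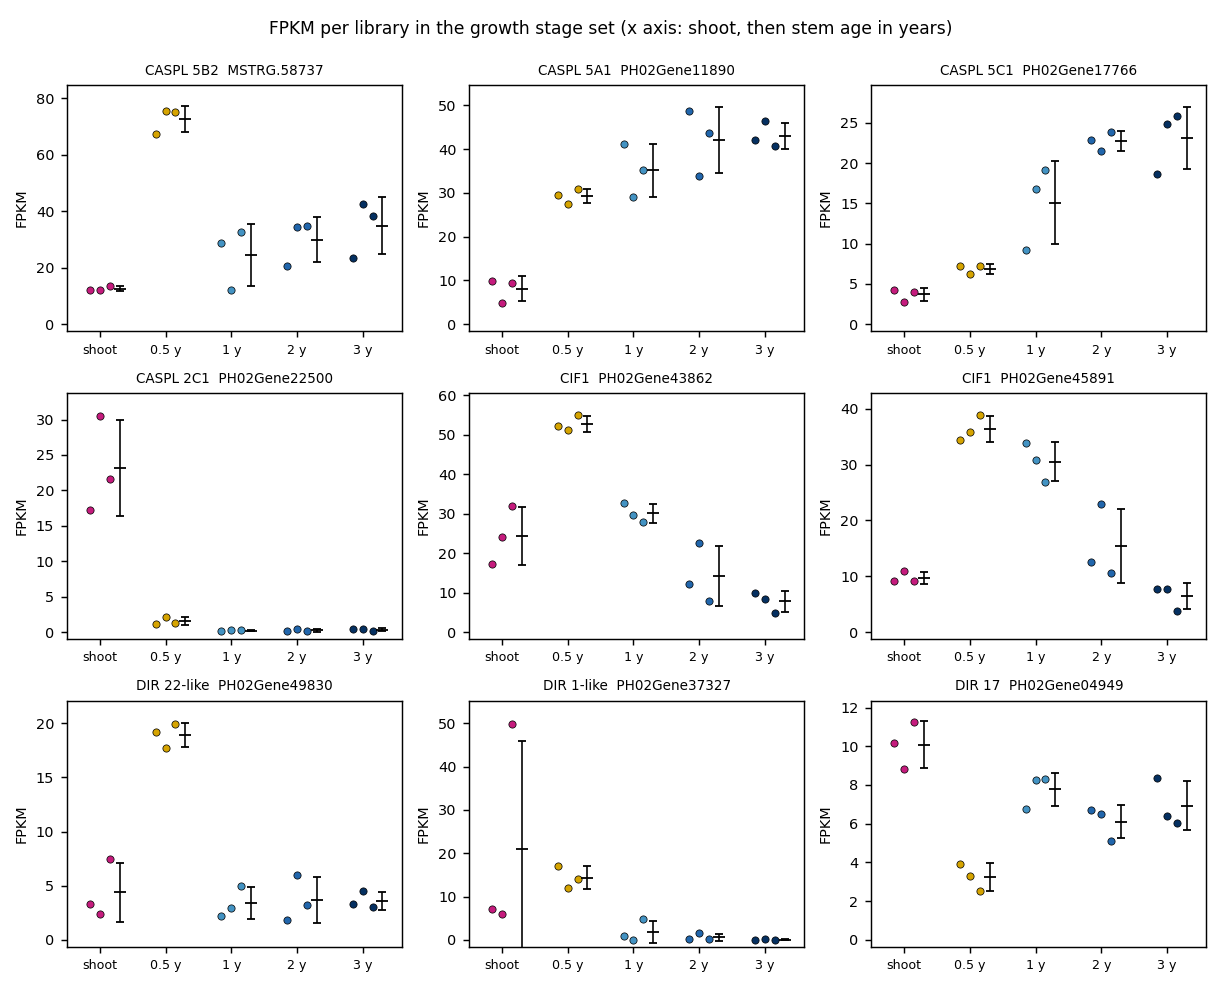
FPKM of 9 members in each growth stage library (points, libraries 1 to 3 from left to right), with the mean and SD of each stage (bar; SD bars that reach below 0 are cut off). CASP-like 5B2, both CIF genes and dirigent 22-like were highest in the 0.5-year stem, CASP-like 5A1 and 5C1 stayed high in older stems, CASP-like 2C1 was highest in the shoot, and dirigent 1-like PH02Gene37327 reached 49.8 FPKM in shoot library 3 alone.

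Between the 0.5-year and the 1-year stem, 3 members were higher in the 1-year stem and 12 lower, where 14.4% and 16% of all genes were (33.3% of members and 30.4% of all genes in either direction), with a median log2 change of -0.65 over members and -0.01 over all genes. The higher ones were 5C1 (PH02Gene17766), a 4U1 gene (PH02Gene30530) and dirigent 17 (PH02Gene04949). The call of PH02Gene30530 (1.72 ± 0.59, adjusted p = 0.0415) ended without 0.5-year library 1 or 2 or 1-year library 1 or 3 (adjusted p = 0.0928 to 0.157) and with no filter on low values (adjusted p = 0.062). The lower ones held 6 CASP-like, 1 CIF and 5 dirigent genes. CASP-like 2C1 (PH02Gene34988) had 0.299, 0 and 0.326 FPKM at 1 year, against 2.08, 2.1 and 2.67 at 0.5 years (-3.39 ± 0.72, adjusted p = 0.00346), and 5B2 (PH02Gene30751) had 1.15, 1.42 and 2 FPKM, against 6.86, 8.14 and 7.11 (-2.33 ± 0.31, adjusted p = 0.00015). Neither pair of groups overlapped. CASP-like 1C1 (PH02Gene48072) had 0.135, 0.157 and 0 FPKM at 1 year, against 2.68, 2.3 and 4.77 at 0.5 years, also without overlap (-4.88 ± 1.07, adjusted p = 0.00528). Since the 3 libraries of the 0.5-year stem were much closer to one another than those of other groups, they were also summed to 1 sample, and 1 member was then higher and 6 lower, with CASP-like 5B2 (MSTRG.58737, adjusted p = 0.053), 1C1 (PH02Gene48072, 0.0536), 5C1 (PH02Gene17766, 0.108) and 4U1 (PH02Gene30530, 0.184), CIF PH02Gene43862 (0.275), and the dirigent genes PH02Gene30332 (0.124), PH02Gene47479 (0.124) and PH02Gene37327 (0.174) no longer called.

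Later steps showed few differences. In the 2-year against the 1-year stem no member was higher and 1 was lower in edgeR, where 1.03% and 0.474% of all genes were (1.5% in either direction), and 6 members had an unadjusted p under 0.05. The lower one, CASP-like Os03g0196400 (PH02Gene01598), had 1.04, 1.07 and 0.755 FPKM at 2 years, against 4.63, 2.79 and 3.03 at 1 year (-1.68 ± 0.36, adjusted p = 0.0405), and the count was 0 without any 1 of the 1-year libraries or without 2-year library 1 or 3, and 3 without 2-year library 2. DESeq2 called 1 member higher, 5C1 (PH02Gene17766, 0.86, adjusted p = 0.0196). In the 3-year against the 2-year stem edgeR called no member, where 0% of all genes were higher and 0.00677% lower, 4 members had an unadjusted p under 0.05, and DESeq2 called 1 lower, CIF PH02Gene45891 (-1.23, adjusted p = 0.012).

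Over the whole span, 8 members were higher in the 3-year stem than in the shoot and 19 lower, where 30.2% and 35% of all genes were (60% of members and 65.2% of all genes in either direction), with a median log2 change of -1.02 over members and -0.12 over all genes. Of the 13 dirigent genes tested, 1 was higher and 8 were lower, with a median of -3.19. Among the lower ones, PH02Gene10505, PH02Gene41384 and PH02Gene41385 reached the level for testing through the shoot alone. The filter therefore fixed part of this count and median. Dirigent 1-like PH02Gene37327 had 0, 0.173 and 0 FPKM at 3 years, against 7.24, 5.91 and 49.8 in the shoot (-7.63 ± 1.49, adjusted p = 0.000445). Dirigent 21-like (PH02Gene30332) had 0 counts at 3 years, against 3.33, 5.19 and 10.1 FPKM in the shoot, and was at least 33.2-fold lower (adjusted p = 0.000198). PH02Gene47479 had 0.808, 0.829 and 0.643 FPKM at 3 years, against 10.5, 29 and 12 in the shoot (-3.97 ± 0.62, adjusted p = 6.96e-05). None of these 3 genes overlapped between the groups, and in the first 2 shoot library 3 was the highest. The 1 higher dirigent gene, dirigent 9-like (PH02Gene15063), had 3.19, 1.45 and 1.73 FPKM at 3 years, against 0, 0.145 and 1.92 in the shoot, and its call (2.18, adjusted p = 0.0496) ended without any 1 of the shoot libraries 1 and 2 or the 3-year libraries (adjusted p = 0.0518 to 0.169).

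The 3 following calls lower at 3 years were each ended by leaving out a single library (adjusted p = 0.0526 to 0.193). CASP-like 4A3 (PH02Gene40971) had 0.831, 0.822 and 1.49 FPKM at 3 years, against 4.17, 3.03 and 4.36 in the shoot (-1.36 ± 0.54, adjusted p = 0.0381), a call lost without shoot library 1 or 3 or 3-year library 1 or 2. The call was also lost with no filter on low values and with only the libraries compared. CASP-like 4A2 (PH02Gene14372) had 0.385, 0.508 and 0.441 FPKM at 3 years, against 1.86, 1.43 and 0.807 in the shoot (-1.12 ± 0.47, adjusted p = 0.048), a call lost without shoot library 1 or 2 or any 3-year library. That call was also lost with DESeq2, no filter on low values, a replicate block or only the libraries compared. Dirigent 19 (PH02Gene15809) had 0.405, 0 and 0 FPKM at 3 years, against 1.32, 1.28 and 3.15 in the shoot (-2.91 ± 0.97, adjusted p = 0.0161), a call lost without shoot library 3 or 3-year library 2 or 3. None of these genes overlapped between the groups.

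Markers of other cells moved with the stages. The 82 secondary wall genes summed to 578, 879 and 1358 FPKM in shoot libraries 1 to 3, 1283 to 1323 at 0.5 years, 52.1 to 346 at 1 year, 23.2 to 228 at 2 years and 16.7 to 47.2 at 3 years, with 20 of the 82 at 0 in the shoot and 42 at 3 years. The 62 dividing cell genes summed to 220 to 812 FPKM in the shoot, 75.3 to 80.1 at 0.5 years and 71.2 to 96.5 in the older stems, with 17 of the 62 at 0 in the shoot and 33 at 3 years. The 22 green tissue genes summed to 171 to 623 FPKM in the shoot, 223 to 256 at 0.5 years and 38.8 to 108 in the older stems. The 56 genes of the root and root hair list summed to 470 to 539 FPKM in the shoot, 677 to 701 at 0.5 years, 755 to 862 at 1 year, 930 to 1014 at 2 years and 913 to 1105 at 3 years, with 24 of the 56 at 0 in the shoot and 28 at 3 years. As this list was lower in the rhizome than in branch and part-set stem, its rise cannot be read as root content. Of the 19 members lower at 3 years, 9 had the order of shoot libraries that the secondary wall sum had (3 over 2 over 1), as did 3 of the 8 higher members, 16 of the 45 members tested (35.6%) and 19.4% of all genes tested. The order among all genes called higher or lower was not counted. The part of the marker genes in the members' changes was not tested.

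At the first step 53.8% of all genes were called. Of 66 tested genes for endodermis regulators and Casparian strip machinery, 24 were higher and 22 lower in the 0.5-year stem than in the shoot (69.7% called), and without the scarecrow-like proteins 5 were higher and 14 lower of 30 (63.3% called). A respiratory burst oxidase gene (PH02Gene48993) averaged 47.4 ± 3.38 FPKM at 0.5 years and 2.02 ± 2.53 in the shoot (4.97, adjusted p = 5.18e-05). A GSO1 gene (PH02Gene44679), named after the receptor of the CIF peptides in Arabidopsis, averaged 0.021 ± 0.0364 FPKM at 0.5 years and 15 ± 10.2 in the shoot (-8.96, adjusted p = 6.2e-06). Of 16 tested genes on the suberin list (68.8% called) 1 was higher, a GPAT6 gene (PH02Gene05664, 1.27, adjusted p = 0.00432, not called by limma on log2(FPKM + 1)), and 10 were lower, with a median of -3.37. The list may hold genes with roles other than suberin, so these changes cannot be assigned to suberin. A cytochrome P450 86A22-like gene (PH02Gene00516) had 0 counts at 0.5 years, against 3.47 ± 0.712 FPKM in the shoot, and was at least 90.4-fold lower (adjusted p = 1.57e-05).

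Of 9 silicon uptake genes 3 were higher and none lower (33.3% called, against 53.8% of all genes), and an LSI2-like efflux transporter (PH02Gene03618) averaged 285 ± 3.52 FPKM at 0.5 years and 98 ± 37.8 in the shoot (1.91, adjusted p = 0.000153). Of 63 laccase and monolignol genes 21 were higher and 15 lower (57.1% called). A cinnamoyl-CoA reductase 1-like gene (PH02Gene33787) averaged 4.56 ± 0.97 FPKM at 0.5 years and 0.07 ± 0.0732 in the shoot (6.13, adjusted p = 0.00302), while Laccase-23 (PH02Gene03398), with 0 counts at 0.5 years and 19.6 ± 6.79 FPKM in the shoot, was at least 479-fold lower (adjusted p = 3.6e-06). The single lignan gene was not called.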

How the data were processed

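RNA-seq values of 27 libraries were used as deposited. Expected counts per gene and library were made by the authors, and so were the FPKM values, which also divide by transcript length and depth, per the file headers. HISAT2, StringTie 1.3.1 and RSEM are named in the submitters' processing notes without role or order, with a genome build not given in the sources used here. Near-identical family members may share reads, which the authors' counting could have divided between them.

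Counts were rounded and tested with edgeR 4.0.16 (quasi-likelihood, TMM) in R 4.3.3. Each set was fitted separately with all its groups and no other factor, since the sets may be batches. Tested genes reached 1 FPKM in 3 or more libraries (29538 by stage, 29630 by part). Two-sided p-values were Benjamini-Hochberg adjusted over these in each comparison, with calls at 0.05. The SE is the log2 change over the root of the F statistic. A fold against a group at 0 counts is a bound at 3 counts over that group. The alternatives were DESeq2 1.42.0, limma 3.58.1 on log2(FPKM + 1) and log2(FPKM + 0.1), RLE factors, other filters, a replicate block, only the libraries compared, the 0.5-year libraries summed, and each library left out. The fit was tested on simulated counts.

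The members and lists were chosen with earlier results of these data known, so no list was tested. Genes named were, in each set, the 8 most abundant Casparian strip or CASP-like members and the 8 most abundant dirigent members. In each comparison they were the 4 largest rises and 4 largest falls among called members without overlap and with at least 2 FPKM in the higher group. They were also called members whose shortened description was borne by 3 members or fewer of the set. In each other list they were the called genes that rose and fell most, from the same level, against the aerial mean and at 0.5 years. PH02Gene18497, PH02Gene24316 and MSTRG.9169 were named after their values were seen.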

Additional observations from a re-analysis of the deposited data

How the results depend on the processing

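Across 141 calls of members and 2034 pairs of a call and an alternative, 1751 stayed called, 283 fell below the threshold and 0 turned direction, and 81 calls held throughout. Of 249 such pairs for the 15 other genes named, 241 stayed called. Leaving out 1 library at a time gave 9 to 15 higher and 5 to 7 lower members in the rhizome against the mean of the aerial parts, 10 to 16 and 6 to 8 against leaf, 1 to 8 and 6 to 9 against branch, and 2 to 13 and 4 to 6 against part-set stem. By stage it gave 13 to 18 and 8 to 9 at 0.5 years against shoot, 2 to 3 and 8 to 12 at 1 against 0.5 years, 0 and 0 to 3 at 2 against 1 year, 0 and 0 at 3 against 2 years, and 7 to 8 and 17 to 18 at 3 years against shoot. Counts moved by over 1.5 times elsewhere as follows. With a mean FPKM of 5 or more, which left 16 and 15 members, they were 4 higher and 4 lower against the aerial mean, 7 and 3 against leaf, 2 higher against branch, 4 higher against part-set stem, 2 lower at 0.5 years, 6 lower at 1 year, 0 lower at 2 years, and 5 higher and 4 lower at 3 years against shoot. With only the libraries compared, 2 were higher against branch, 3 higher against part-set stem and 0 lower at 2 years. With no filter, 6 were higher against part-set stem. DESeq2 gave 1 higher at 2 against 1 year and 1 lower at 3 against 2 years. With the 0.5-year libraries summed, 1 was higher and 6 lower at 1 year. The cause of these shifts was not tested, except that fewer genes or libraries entered some fits. In each set 28 of 53 dirigent genes had 0 counts in every library, so no difference in them was detectable at this depth.

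Whether replicate numbers pair the libraries was not settled. Same-numbered libraries of different groups deviated with correlations of -0.142 to 0.194 by part and -0.107 to 0.209 by stage. Of these, 3 of 18 and 3 of 30 passed 0.1. Differently numbered libraries gave -0.254 to 0.138 by part and -0.271 to 0.273 by stage. With the replicate block, 7 members were higher in the rhizome against the part-set stem and 0 lower at 2 against 1 year, and no other count moved by over 1.5 times.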
